A study of Abies pinsapo with 12 samples.

Results

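The 200 transcripts described here were the ones whose level differed most from tree to tree among the well-expressed transcripts of Spanish fir (Abies pinsapo) needles. They were chosen from their own measured spread. Counts were divided by the total of each library to CPM, the usual unit that corrects for sequencing depth, the 200 transcripts of highest mean CPM were set aside, and of the 12268 others with a mean of at least 10 CPM the 200 with the largest SD of log2(CPM + 0.5) over the 12 trees were taken. They made up 1.63% of the 12268 eligible transcripts and 0.262% of the 76481 transcripts in the assembly. The colour of a tree had no part in the choice, and the spread, the profiles over trees and the likeness between members are therefore given as description, with no test.

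RNA was sequenced from mature needles of field-grown adult trees of Sierra de las Nieves, picked by needle colour, with 6 bluish trees (labelled blue) and 6 green trees, no treatment and 1 library per tree. The labels give neither the genotype nor the kinship of the trees, and the extraction text deposited with them describes pine roots, so that the tissue was taken from the other labels and the paper. The library totals lay between 64978939 and 91973481 counts, and because 76.0% of the low values were even, a count of 0 was taken to allow up to 6 counts (3 read pairs), or 0.0652 to 0.0923 CPM, for counting error only. Of the 5 transcripts described as chlorophyll-binding or RuBisCO proteins in the annotation used, the 2 with a conifer best hit summed to between 13.2 and 59.1 CPM in each tree. A needle holds several kinds of cell, and in such bulk RNA fewer cells of a type and less RNA per cell cannot be told apart.

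A conifer needle holds photosynthetic cells, a waxy skin and resin-forming tissue, and it lives through several seasons of light, cold and attack. Among the proteins it is known for are early light-induced proteins, which gather in thylakoid membranes under light stress, intracellular immune receptors with a nucleotide-binding (NB-ARC) domain and leucine-rich repeats (LRR), often with a TIR domain in front, and terpene synthases, which make resin and scent compounds. Immune receptors, terpene synthases and retroelements all occur as large families of similar sequences in conifer genomes. In a transcriptome assembled from short reads, a family or the alleles of a gene can stand as several contigs, and reads can be divided between contigs that are nearly identical.

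The SD of the members lay between 0.94 and 3.34, with a median of 1.26, against a median of 0.19 in the eligible transcripts that were not chosen. In 33 members the SD was above 2 and in 65 above 1.5, while 88 lay below 1.2. The last transcript inside the threshold was ap_7443, with an SD of 0.942, after ap_3157 with 0.944, and the first ones outside it were ap_71196 with 0.940 and ap_12674 with 0.937. The ratio of the highest to the lowest tree, on values with 0.5 CPM added, ran from 6.14 to 531, with a median of 16.3. Mean levels lay between 10.2 and 339 CPM, with a median of 22.1 CPM against 27.8 CPM in the eligible transcripts that were not chosen. The smallest mean count of a member was 747, at which counting alone gives an SD of log2 of at most 0.0746. This holds at the mean count only. In 15 members at least 1 library was at 6 counts or fewer, where counting error is larger and the 0.5 CPM added largely sets the log2 value.

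**Figure D1:**
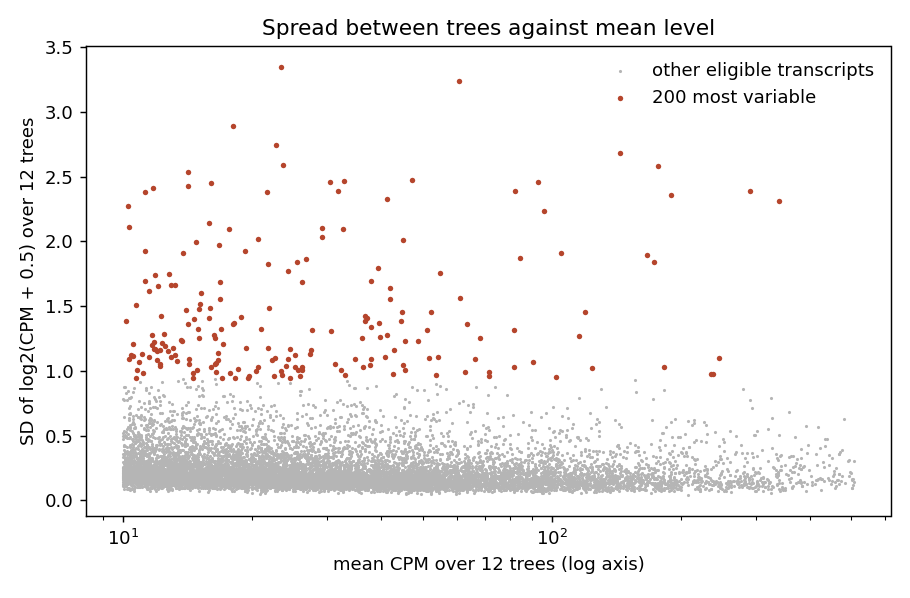
Each point is 1 of the 12268 eligible transcripts, with its mean CPM over 12 trees on a log axis and its SD of log2(CPM + 0.5) over the same trees. The 200 members, in red, lie above 0.94 at all mean levels up to 339 CPM, and the bulk of the others lie near 0.19.

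The member with the largest SD was ap_70832, which is not described in the annotation used. It was at 78.0 CPM in bluish tree 2, 70.1 CPM in bluish tree 3, 67.2 CPM in green tree 6 and 59.8 CPM in green tree 5. It had no count in green trees 1 to 4, and the remaining bluish trees lay between 0.0587 CPM in tree 1 and 4.81 CPM in tree 4. High and low trees were thus found in both colours. The second, ap_2903, ranged from 0.109 CPM in green tree 2 to 162 CPM in bluish tree 5 with a median of 59.2 CPM. It was below 1 CPM in bluish trees 1 and 2 and green trees 2 and 6, and at 45.1 CPM or more in the other 8. Next in SD, ap_76368 was at 135 CPM in bluish tree 6, 55.5 CPM in green tree 3 and 23.4 CPM in bluish tree 4, and at 1.17 CPM or less elsewhere.

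The members of highest level could be as variable as those of low level. At a mean of 339 CPM, ap_83082 fell as low as 8.37 CPM in bluish tree 3, with 4.95 CPM in green tree 2, and lay between 214 and 574 CPM in the other 10 trees. With a mean of 289 CPM, ap_14776 fell to 4.98 CPM in green tree 3 and 5.92 CPM in green tree 6 and reached 656 CPM in bluish tree 2. Neither is described in the annotation used. In all, 185 members lay above 6 counts in every library, 15 were at 6 counts or fewer in at least 1 library and 8 had a count of 0 in at least 1.

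Each of the 12 trees was the highest for some members and the lowest for others. Together the members took between 0.630% of the counts in green tree 3 and 0.933% in bluish tree 4. Bluish tree 5 was the highest tree for 35 members, green tree 4 for 23 and green tree 6 for 19, and the other trees for between 8 and 18. The lowest tree was bluish tree 3 for 25 members, green tree 3 for 25, green tree 5 for 23, bluish tree 4 for 2 and green tree 4 for 3. Levels below 0.25 times the member's median were most frequent in green tree 3, with 45 members, and least frequent in bluish tree 4, with 4. When the choice was repeated with 1 tree left out, between 181 members (without bluish tree 5) and 195 (without bluish tree 4) were chosen again, and 102 were chosen again in all 12 repeats. Counted within each colour, the median SD of the members was 1.24 in bluish and 1.32 in green trees, and 105 members (52.5%) had the larger SD in green trees, against 59.3% of the eligible transcripts.

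**Figure D2:**
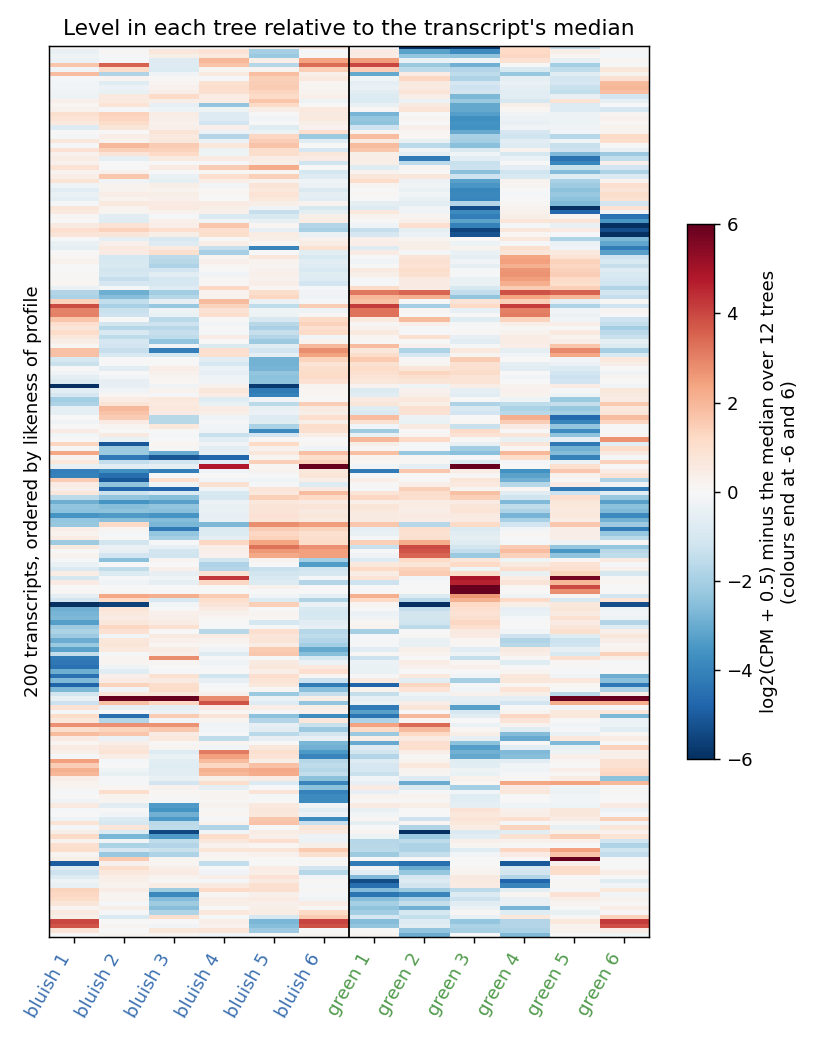
Rows are the 200 members, ordered by likeness of profile, and columns are the 6 bluish and the 6 green trees, with colour for log2(CPM + 0.5) minus the member's median. Dark cells are spread over both colours and all 12 trees, with 45 members below 0.25 times their median in green tree 3 and 4 in bluish tree 4.

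The colour of the needles was the study's contrast, and it was compared with edgeR's quasi-likelihood test, taking FDR under 0.05 and |logFC| above 1 for DE transcripts. A positive logFC stands for a higher level in bluish trees. Of the members 199 passed the filter (2 or more CPM in 2 or more libraries), and 0 of these 199 were DE transcripts, against 0.00428% of the 23352 transcripts tested. Their FDR lay between 0.755 and 1.00. At an unadjusted p under 0.05 there were 18 members (9.05%), against 6.33% of all transcripts tested. Of these, 6 members (3.02%) were higher in bluish trees, beside 3.07% of all tested, and 12 (6.03%) were higher in green trees, beside 3.26% of all tested. The count depended on the tool. DESeq2 called 2 members (1.01%, against 0.0942% of all tested), edgeR's exact test called 5 with a dispersion for each transcript (2.51%, against 0.0985%) and 38 with a common dispersion (19.1%, against 1.94%), of which 19 were higher in each colour. A common dispersion takes every transcript to vary alike, which was not so for the members, chosen as they were for their spread.

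Large differences between the colour means came with a large spread between trees of a colour. The SD over all 12 trees, by which the members were chosen, takes in the difference between the colours and makes large logFC more frequent by the choice itself, so that nothing is read from their count. A |logFC| above 1 was found for 38 members (19.1%), against 1.95% of all tested, and 113 members (56.8%) had a positive logFC, against 49.1%. In 0 of the 199 members did the 6 bluish and the 6 green trees separate without overlap, against 0.167% of all transcripts tested. The share of the sum of squares of log2(CPM + 0.5) that lay between the colours had a median of 7.19% in the members and 5.42% in the eligible transcripts. It was above 50% in 4 members, namely ap_13652 (68.1%), ap_92867 (60.3%), ap_80401 (55.6%) and ap_6190 (50.9%).

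The smallest p of the members belonged to ap_13652, described as a farnesene and ocimene synthase, an enzyme of volatile terpene formation. It lay between 2.66 and 5.30 CPM in 5 bluish trees and at 12.6 CPM in bluish tree 3, and in green trees it lay between 8.36 CPM in tree 3 and 27.2 CPM in tree 2. Bluish tree 3 lay above green trees 3 and 6, so that the colours overlapped by these trees. The means were 5.27 ± 3.70 CPM in bluish and 18.8 ± 7.13 CPM in green trees (SD, n = 6), with logFC −1.84 (SE 0.406) and FDR = 0.755 by edgeR's quasi-likelihood test. DESeq2 gave FDR = 0.00168, and the exact test with transcript-wise dispersions gave 7.84e-04. Without each tree in turn the logFC stayed between −2.32 and −1.68.

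In the other direction, ap_92867, which the study's GO annotation places under lipid metabolism and oxidoreductase activity, averaged 20.9 ± 14.3 CPM in bluish and 5.62 ± 2.80 CPM in green trees. Its logFC was 1.86 (SE 0.425) and FDR = 0.773 by edgeR's quasi-likelihood test. The bluish range was 9.49 to 46.3 CPM and the green range 3.49 to 10.9 CPM. Green tree 2 reached into the bluish range. DESeq2 called it, with FDR = 0.00237. The membrane transport transcript ap_80401 was between 26.6 and 41.6 CPM in bluish trees and between 3.79 CPM in tree 5 and 28.7 CPM in tree 4 among green trees, with logFC 1.26 (SE 0.360) and FDR = 0.773. Its bluish trees were close together, with an SD of 5.58 CPM around 35.7 CPM, and of the spread within the colours more was among green trees (14.8 ± 8.84 CPM). The plastid oxidoreductase ap_6190, chosen after its values were seen, was at 18.1 CPM on average in bluish and 6.54 CPM in green trees (logFC 1.45, SE 0.482).

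**Figure D3:**
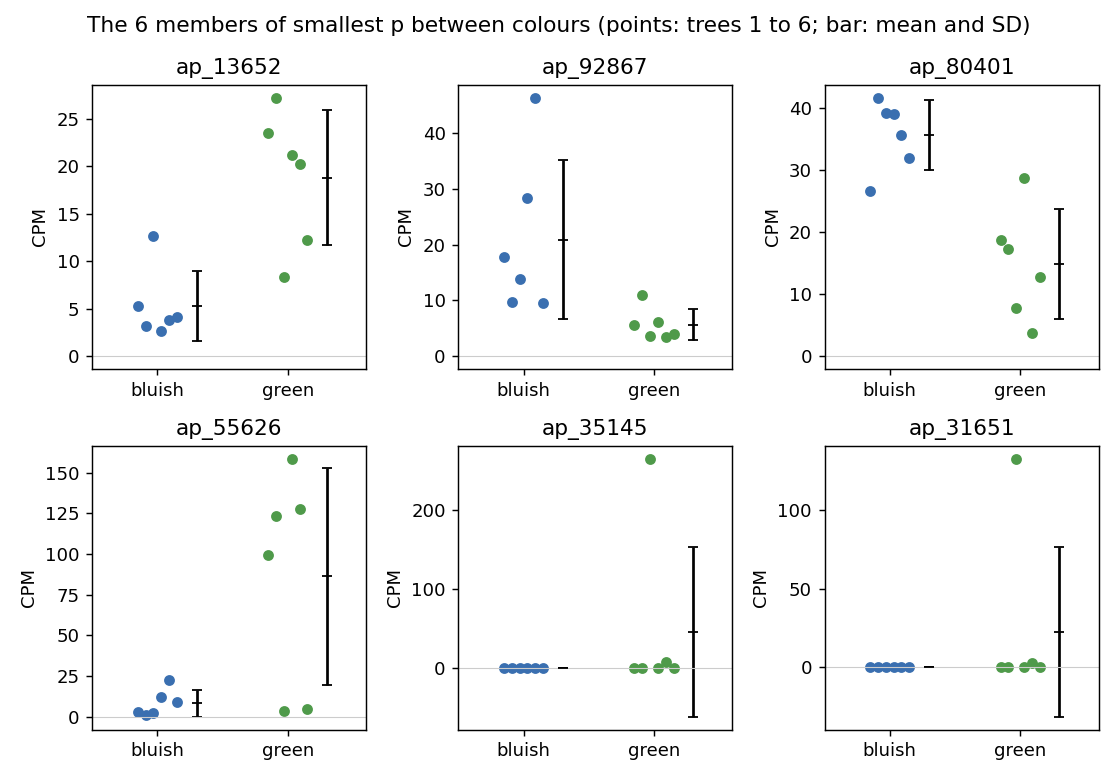
CPM of the 6 members with the smallest p between colours, 1 point per tree in the order of the tree numbers, with the mean and SD of each colour at the side. The colours overlap in every panel, and the green means of ap_35145 and ap_31651 are set by green tree 3, at 265 and 132 CPM.

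Some members were all but confined to 1 tree. In 5 members over 50% of the CPM summed over the trees came from a single tree. Green tree 5 held 98.9% of ap_3077, at 122 CPM, with at most 1.00 CPM in any other tree, and this was the 1 member that did not pass the filter of the colour test. Green tree 3 held 97.3% of ap_35145 and 97.7% of ap_31651, which were at 265 and 132 CPM there. Both were also found in green tree 5, at 7.28 and 3.00 CPM, and had 8 and 7 libraries without a count. Neither has a database hit in the annotation used.

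The same green trees stood out for ap_71523, a SANT domain-containing protein of the kind found in chromatin-remodelling complexes, with 88.8 CPM (65.6% of its sum) in green tree 3 and 13.9 CPM in green tree 5, against a median of 3.17 CPM. These 3 members had profiles with r between 0.87 and 0.996. Their logFC was −11.15 (SE 2.97) for ap_35145, −10.74 (SE 2.91) for ap_31651 and −2.56 (SE 1.00) for ap_71523, with FDR = 0.773 for each by the quasi-likelihood test. The exact test with transcript-wise dispersions called ap_35145 (FDR = 0.0347) and ap_31651 (FDR = 0.0221), and DESeq2 gave no FDR for either. Since 5 and 3 of the 6 bluish libraries had no count for the first and the second, the size of their logFC depends on the prior count of the fit. Without green tree 3, the logFC of ap_71523 was −0.72. The fifth member with more than 50% in 1 tree was ap_76368, with 62.3% in bluish tree 6.

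A further 30 members fell into 2 separate levels, with a gap of at least 2 on the log2 scale that took up at least 50% of their range and with at least 2 trees on each side. In 16 of them 10 trees were high and 2 were low, in 9 there were 8 or 9 high trees, in 3 there were 6 or 7, and in 2 there were 3. The 2 low trees were both green in 10 of the 16, both bluish in 2 and 1 of each colour in 4. The widest gap, 5.27, was that of ap_8560, a PAP/fibrillin domain protein, of a family known for its place in plastid lipid bodies. This transcript was lowest in bluish trees 1 (0.558 CPM) and 5 (1.44 CPM) and lay between 74.5 and 142 CPM in the other 10 trees. For ap_2903 the gap was 4.94, and for ap_83082 it was 4.59.

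The trees that were low differed from member to member. Only 2 sets of low trees came back among the 30. Green trees 3 and 6 were the low trees of ap_2918, ap_78376 and ap_16823. In ap_2918 they were at 4.54 and 2.09 CPM against 92.6 to 387 CPM in the others, in ap_78376 at 2.13 and 1.66 CPM against 24.9 to 59.6 CPM, and in ap_16823 at 3.62 and 2.92 CPM against 22.5 to 64.6 CPM. Green trees 1 and 4 were the low trees of ap_676 and of ap_94168, a homolog of ROOT HAIR DEFECTIVE 3, which in Arabidopsis shapes the endoplasmic reticulum. The latter was at 0.791 and 1.43 CPM in these trees and between 29.9 and 76.8 CPM in the rest. Transcript ap_81623, placed by the GO annotation under gene expression and the cytosol, belonged to the 16 as well, at 1.83 CPM in green tree 2 and 1.54 CPM in green tree 5 against 15.4 to 63.5 CPM elsewhere.

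**Figure D4:**
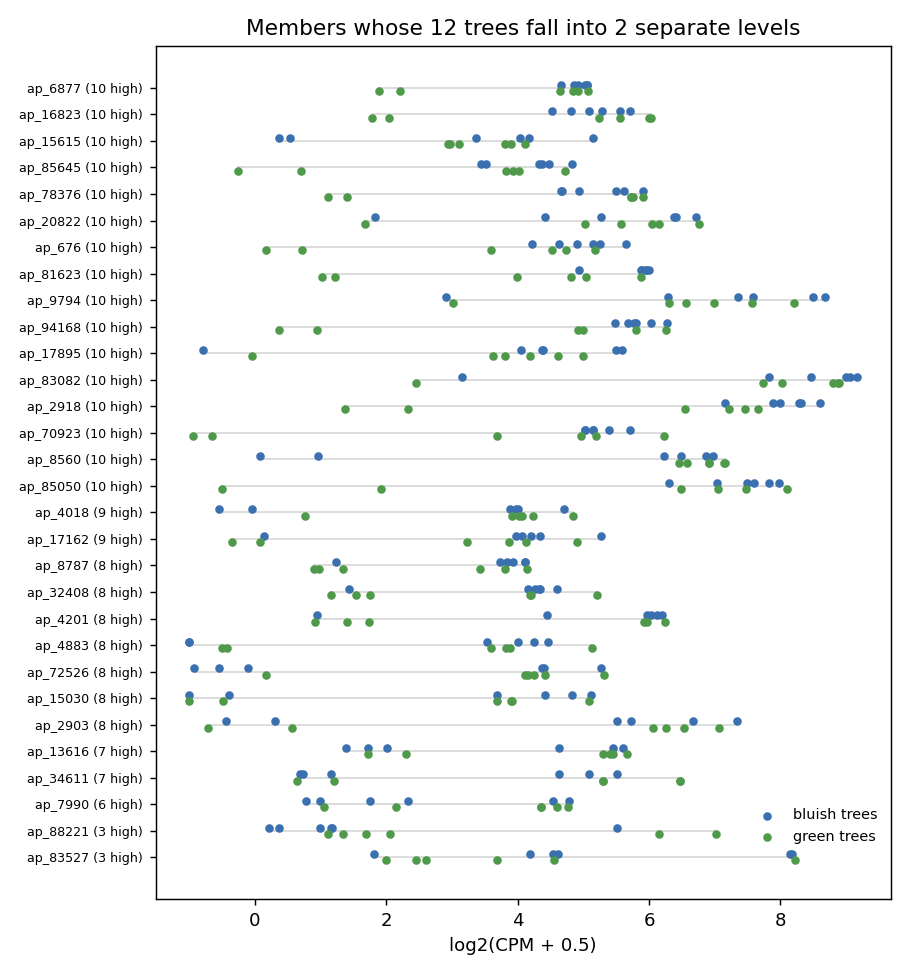
The 30 members with 2 separate levels, with log2(CPM + 0.5) on the axis and 1 point per tree, bluish trees in blue and green trees in green; the number of high trees stands after each name. Trees of both colours lie on the high side in every member, and in 10 of the 16 members with 10 high trees both low trees are green.

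In 20 members 1 tree stood apart from the other 11 by a gap of the same size. In 17 of them it was a low tree, and the 3 in which it was a high tree were ap_3077, ap_35145 and ap_31651.

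The largest list of members by description was that of immune receptors, with 11 members of 23 eligible transcripts. The words searched were TIR, NB-ARC, NBS, LRR and protein kinase. For comparison, 73 of the 291 eligible transcripts in the annotation entries used were members. Receptors with TIR or NB-ARC domains have roles in the recognition of pathogens in plants. The words LRR and protein kinase are more general, and the study counts LRR receptor-like kinases under signal transduction. An immune role is thus not known for each of the 11. In 10 of the 11 the logFC was negative, where 49.1% of all transcripts tested had a positive one. The annotation used held no named member with logFC above 1, so that nothing is read from this direction. Of the 11, 6 share nearly the same profile, and so do ap_55626 with ap_10990 and ap_83722 with ap_76345. These are therefore not 11 separate observations. Of the 11, 1 had an unadjusted p under 0.05, namely ap_55626, beside 6.33% of all tested.

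Members of this group shared profiles rather than colours. The 5 TIR domain contigs ap_23921, ap_7990, ap_83766, ap_86312 and ap_76917 and the TIR-NBS-LRR contig ap_13616 had profiles with r between 0.95 and 0.998. The highest of them, ap_23921, lay between 46.8 and 61.0 CPM in bluish trees 5 and 6 and green trees 1, 2, 3 and 5, at 23.9 CPM in bluish tree 4, and between 1.88 and 4.45 CPM in bluish trees 1, 2 and 3 and green trees 4 and 6. The same trees were low in all 6 contigs, with bluish tree 4 between, so that each colour held high and low trees. For ap_23921 the means were 24.3 ± 26.9 CPM in bluish and 34.0 ± 24.0 CPM in green trees, which gave a logFC of −0.54 (SE 0.946) and FDR = 0.946. The 5 TIR contigs have the same best hit, and their sum ran from 9.57 CPM in green tree 6 to 167 CPM in bluish tree 5. Reads could have been divided among near-identical contigs, and whether they were was not tested. The 7 other contigs with that best hit summed to between 16.8 and 44.2 CPM, and over the 12 trees the log2 sums of the 5 and of the 7 had r = −0.27. Summed over all 12 contigs, the high trees still lay at 155 CPM or more and the low ones at 58.5 CPM or less.

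A second set of trees was set apart by the NB-ARC contigs ap_83722 and ap_76345, which share a best hit and had r = 0.99. The first was at 1.88 CPM in green tree 5 and otherwise spanned 18.2 CPM (bluish tree 3) to 272 CPM (green tree 4), with a median of 59.8 CPM. The second was at 2.44 CPM in green tree 5 and up to 123 CPM in green tree 4. Bluish trees held neither the lowest nor the highest value in either contig. The 12 other contigs with that best hit summed to between 29.7 and 63.8 CPM, the latter in green tree 5, and the log2 sums of the 2 and of the 12 had r = −0.47. Summed over all 14 contigs, green tree 5 was at 68.2 CPM, close to bluish tree 3 at 85.3 CPM and bluish tree 5 at 102 CPM, and green tree 4 was at 448 CPM. The logFC of ap_83722 was −0.83 (SE 0.801), with FDR = 0.883.

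The LRR receptor kinase ap_55626 and the LRR domain contig ap_10990 had another pattern, with r = 0.97. The kinase was between 99.4 and 159 CPM in green trees 1, 2, 4 and 5, at 3.45 and 4.68 CPM in green trees 3 and 6, and between 0.948 and 22.5 CPM in bluish trees. Bluish trees 4, 5 and 6 lay above the low green trees, at 9.22 CPM or more. Its means were 8.32 ± 8.26 CPM in bluish and 86.3 ± 66.4 CPM in green trees, which gave a logFC of −3.41 (SE 0.982) and FDR = 0.773 by the quasi-likelihood test, and the exact test with transcript-wise dispersions called it (FDR = 0.0162).

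**Figure D5:**
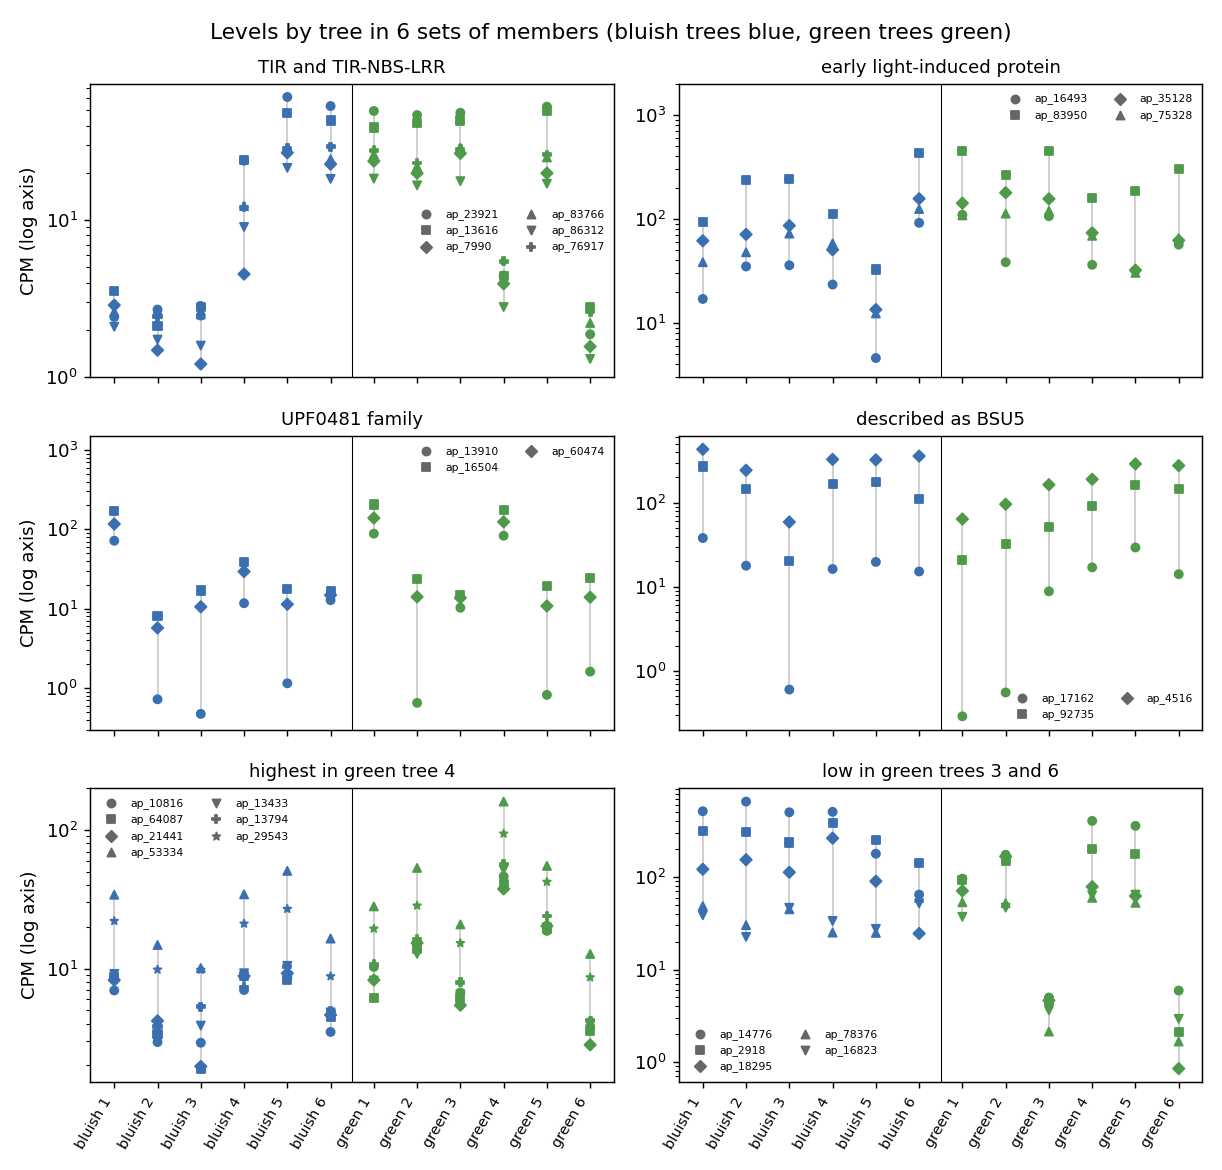
CPM on a log axis in each tree for 6 sets of members with like profiles or a shared description, with a marker for each transcript and a bar from its lowest to its highest marker in that tree. The contigs of a set are high and low in the same trees, as in the TIR contigs, which are at 5.48 CPM or less in bluish trees 1 to 3 and green trees 4 and 6.

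Of the light and photosynthesis transcripts, 4 of the 7 eligible ones were members, all contigs of the early light-induced protein with 1 best hit. The most abundant, ap_83950, had a mean of 246 CPM and ranged from 32.6 CPM in bluish tree 5 to 453 CPM in green tree 3, with a median of 238 CPM. The 4 contigs summed to 63.1 CPM in bluish tree 5, 211 CPM in bluish tree 1 and 245 CPM in bluish tree 4, and to between 281 CPM (green tree 5) and 835 CPM (green tree 3) in the others. Bluish tree 5 was thus the lowest and bluish tree 6, at 800 CPM, among the highest. The 3 other contigs with the same best hit summed to between 477 CPM in bluish tree 5 and 3243 CPM in bluish tree 6, and the log2 sums of both sets had r = 0.95. All 7 together were at 1956 ± 1269 CPM in bluish and 2933 ± 708 CPM in green trees (SD, n = 6). The logFC of ap_83950 was −0.67 (SE 0.492) and that of ap_16493 was −0.88 (SE 0.558), with FDR of 0.854 and 0.825. The undescribed members ap_4577 and ap_4319 had profiles like these, with a lowest r of 0.85 within the group.

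Of 14 eligible transcripts for stress proteins, 4 were members. The small heat shock proteins ap_13542 and ap_9053, chaperones of unfolded proteins, were lowest in bluish trees 2, 3 and 5. The first was between 72.0 and 86.4 CPM in these and between 97.7 and 490 CPM in the other 9 trees, with a median of 248 CPM. Both colours overlapped, with logFC −0.50 (SE 0.482) and FDR = 0.882. The metallothionein-like protein ap_15044, of a family that binds metals, ranged from 5.68 CPM in green tree 3 to 56.8 CPM in green tree 1, with a median of 20.4 CPM. The 3 other contigs with its best hit summed to between 32.7 and 282 CPM (r = 0.39 with the member). Its profile was near that of the lipid-transfer protein ap_2301 (r = 0.87), of a family known to carry lipids to the surface, which had no count in green tree 3 and was at 58.5 CPM in green tree 1, and which was the 1 member of the 3 eligible wax and lipid transcripts. The thioredoxin domain transcript ap_8675 was above 20 CPM in bluish tree 6 and green trees 1 and 5 and at 8.76 CPM or less in the other 9.

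Terpenoid transcripts gave 3 members of 9 eligible ones, each with a pattern of its own. Beside the farnesene and ocimene synthase described above, these were a cytochrome P450 of the CYP720B group, which in spruce oxidises diterpenes to resin acids, and a linalool synthase. The P450, ap_88221, was at 129 CPM in green tree 5, 70.4 CPM in green tree 3 and 45.0 CPM in bluish tree 4, and between 0.660 and 3.68 CPM in the other 9 trees. It held high trees in both colours, with logFC −2.04 (SE 1.37) and FDR = 0.840, and the logFC moved to −0.92 without green tree 5 and to −4.76 without bluish tree 4. Linalool synthase ap_13820 ran from 1.30 CPM in green tree 4 to 40.8 CPM in bluish tree 1, with a median of 10.5 CPM and no gap between its trees, and its logFC was 0.81 (SE 0.758). The alpha-bisabolene synthase ap_59189, a sesquiterpene synthase outside these words and chosen after its values were seen, ranged from 11.5 CPM in green tree 5 to 157 CPM in bluish tree 2.

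The words searched for phenylpropanoid enzymes gave 3 members of 16 eligible transcripts, all described only by a general domain name (epimerase or Fe2OG dioxygenase), so that their pathway is not known from the description, and the study counts ap_17677 under carbon metabolism. The epimerase domain transcript ap_17677 was at 42.4, 26.0 and 14.6 CPM in green trees 6, 1 and 2 and between 3.62 and 6.53 CPM in the other 9 trees. All bluish trees lay in the narrow low range (5.47 ± 1.18 CPM), and 3 green trees lay there too (16.3 ± 15.3 CPM over the 6), with logFC −1.58 (SE 0.525) and FDR = 0.773. A second epimerase domain transcript, ap_6099, had other high trees, with 65.6 and 60.8 CPM in green trees 4 and 5 and 54.4 CPM in bluish tree 4, and was lowest in green tree 6 at 6.09 CPM. The words searched for the cell wall gave 1 member, ap_42493, described only as a glycosyltransferase. A role in the cell wall is not known from this description. It was between 32.9 and 83.5 CPM in green trees and between 27.1 and 36.1 CPM in 4 bluish trees, and at 9.44 and 3.07 CPM in bluish trees 4 and 6. Its logFC was −1.27 (SE 0.471) with FDR = 0.773, and green tree 6 lay within the bluish range. By the words searched in the annotation used, none of the 9 eligible pathogenesis-related transcripts and none of the 3 eligible ribosomal ones was a member. The words missed ap_9794, a member described as a glucanase, with levels between 7.05 CPM in bluish tree 3 and 407 CPM in bluish tree 5. They also missed the member ap_18349, which is not in the entries used. The study names it as a jacalin-type lectin of the defense response.

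Retroelement sequences gave 4 members of 10 eligible ones. The reverse transcriptase contig ap_85050 was at 0.208 CPM in green tree 5 and 3.30 CPM in green tree 3 and between 78.4 and 275 CPM in the other 10 trees. Another, ap_70923, was at 0.0217 CPM in green tree 2 and 0.136 CPM in green tree 3 and between 12.3 and 74.5 CPM in the others. The bluish trees of ap_70923 were close together, at 37.8 ± 7.60 CPM, beside 25.6 ± 28.3 CPM in green trees, and its logFC was 0.59 (SE 0.984) with FDR = 0.944. The integrase domain transcript ap_12193 went the other way. It was lowest in bluish trees 2 and 6, at 1.88 and 2.83 CPM, and highest in green tree 2, at 30.7 CPM (logFC −1.02, SE 0.507, FDR = 0.791). The retrotransposable element ap_2212 ran from 1.63 CPM in green tree 1 to 23.8 CPM in bluish tree 5 (logFC 0.72, SE 0.479, FDR = 0.837). The enzymatic polyprotein ap_76104, a kind of protein known from reverse-transcribing viruses and elements and here outside the words searched, reached 599, 617 and 680 CPM in bluish tree 1, bluish tree 6 and green tree 6, and lay between 4.97 and 57.1 CPM in the other 9 trees. An undescribed member, ap_83527, followed it with r = 0.997 and was at 284, 288 and 298 CPM in the same 3 trees. Both were chosen after their values were seen.

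Contigs of the UPF0481 family, plant proteins of unknown function, were high in 3 trees. For ap_13910 these were green tree 1 at 88.2 CPM, green tree 4 at 83.0 CPM and bluish tree 1 at 71.8 CPM, against 0.474 to 12.8 CPM in the other 9. The contigs ap_16504 and ap_60474, which share a best hit, summed to 344, 300 and 289 CPM in these trees and to between 13.9 and 68.2 CPM in the others. The high trees thus included both colours, and the logFC of ap_13910 was −0.88 (SE 1.36), with −2.53 without bluish tree 1, −0.17 without green tree 1 and −0.31 without green tree 4. Of 3 contigs with the same best hit, described only as BSU5 of a pine, the most abundant was ap_4516, at 58.9 CPM in bluish tree 3, 64.0 CPM in green tree 1 and 95.8 CPM in green tree 2 and between 164 and 431 CPM in the other 9 trees. The sum of the 3 was between 79.7 and 129 CPM in the same low trees and between 223 and 738 CPM in the rest, and the logFC of ap_4516 was 0.69 (SE 0.425) with FDR = 0.820.

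Over the 19900 pairs of members the median r of log2(CPM + 0.5) was −0.01. It was 0.8 or more in 202 pairs and −0.8 or less in 49. The points share libraries, and no test was made. By complete linkage, with all r of at least 0.8 within a group, 124 members fell into 42 groups of 2 to 7, and 76 members stood alone. The 2 ends of the likeness were thus small groups with nearly equal profiles and a large remainder with profiles of their own.

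The largest group held 7 members that were highest in green tree 4, with r between 0.94 and 0.99. They were an aldehyde dehydrogenase domain transcript (ap_10816), a transcript described as a lycopene cyclase/phytoene synthase (ap_13433), a fused enzyme of carotenoid formation known from fungi, a desiccation-related protein (ap_29543), 2 uncharacterized proteins (ap_53334 and ap_13794) and 2 transcripts without a hit (ap_64087 and ap_21441). The most abundant, ap_53334, was at 160 CPM in green tree 4, 55.1 CPM in green tree 5 and 53.3 CPM in green tree 2, and between 10.1 and 50.7 CPM elsewhere. For ap_13433 the values were 51.8 CPM in green tree 4, 19.9 CPM in green tree 5 and between 3.00 and 12.8 CPM in the others. Both colours overlapped in all of these, and the logFC ran with green tree 4. For ap_10816 it was −1.66 (SE 0.520), and without each tree in turn it lay between −1.86 and −1.06, the latter without green tree 4.

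Most of the best hits in this group were outside the conifers, with ap_53334 and ap_29543 nearest to green algae, ap_13794 to a moss and ap_13433 to Carpinus fangiana, and ap_10816 nearest to a conifer. Other transcripts with a best hit in Carpinus fangiana or green algae, and those with one in Anthurium amnicola, also had their highest sums in green tree 4. They were taken from the annotation entries used, with members left out. These entries took in the named members with logFC below −1 and none with logFC above 1. High sums in green trees are thus favoured by the entries themselves, and the likeness is given as description only. The 57 with a best hit in Carpinus fangiana summed to 509 CPM in green tree 4 and 242 CPM in green tree 5, and to between 42.2 and 171 CPM in the other 10 trees. The 21 with a best hit in green algae summed to 228 CPM in green tree 4, 124 CPM in green tree 3 and between 53.0 and 110 CPM in the others. The 30 with a best hit in Anthurium amnicola summed to 184 CPM in green tree 4 and between 77.8 and 147 CPM in the others. The 7 members were on average lower in green tree 3 than in green trees 2 and 5, so that the lists share the peak in green tree 4 and not the whole profile. The 634 with a conifer hit summed to 8800 CPM in green tree 4 and to nearly the same, 8845 CPM, in bluish tree 1, where the Carpinus fangiana list was at 110 CPM and the green algae list at 55.5 CPM, and to between 10358 and 13187 CPM in the other 10 trees. The part of RNA from other organisms in the levels of this group was not tested.

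The 3 members ap_2918, ap_78376 and ap_16823 that fell in green trees 3 and 6 formed a group of 5 with ap_14776 and ap_18295. The latter was at 4.63 and 0.846 CPM in these trees and between 24.5 and 264 CPM in the others. None of the 5 is described. A separate group of 5, with ap_81007 and ap_190, was low in green tree 3 and less so in green tree 5. In ap_81007 these were at 2.55 and 8.80 CPM, beside 29.8 to 92.4 CPM in the other 10 trees, and the logFC was 0.39 (SE 0.592). A similar order with green tree 5 lowest held for the reverse transcriptase ap_85050, ap_75709 and the transport transcript ap_80401.

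Pairs with opposite profiles were led by ap_70832 and ap_4883, with r = −0.96 and a Spearman rho of −0.73. Where ap_70832 was at 59.8 CPM or more, in bluish trees 2 and 3 and green trees 5 and 6, ap_4883 was at 0.246 CPM or less, and in the other 8 trees it was between 11.0 and 34.7 CPM. Their sum was not constant, at 11.6 to 78.0 CPM. The next, ap_35145 with ap_190 (r = −0.93) and with ap_81007 (r = −0.93), rested on green trees 3 and 5, where the first was high and the others low, and their Spearman rho was −0.36 and −0.40.

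The jacalin-type lectin transcript ap_18349, a carbohydrate-binding protein named in the study, was a member as well, with its highest value in bluish tree 5 (72.4 CPM), its lowest in green tree 3 (4.39 CPM) and a median of 23.0 CPM. By profile it was grouped with ap_90775, which the GO annotation places among membrane protein kinases and whose logFC was 1.29 (SE 0.421). Green tree 3 was the lowest tree in both.

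Annotation reached only some of the members. Of the 200, 73 (36.5%) were in the entries of the study's annotation used here, against 2.37% of the eligible transcripts, 61 of them with a description and 12 without a hit. These entries are ordered by the study's own comparison of colours and do not cover both directions alike. All tested members named here with logFC below −1 were in them, and none named with logFC above 1 was. Transcripts much higher in bluish trees can therefore be missing from the lists by function. The 127 others are given by identifier, with GO terms or the study's words for a few. The shares of members by function above are therefore counts of what was described. They stand beside 73 members among the 291 eligible transcripts in the entries used, and were not compared with other transcripts.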

How the data were processed

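Needle RNA of 6 bluish and 6 green trees was sequenced, 1 library per tree. The deposited values were raw counts of reads per assembled transcript, which the authors made by trimming, mapping the read pairs to their own assembly with BWA and counting, without normalization. All 12 columns matched a library label and 0 columns were left over. A read pair usually gave 2 counts, so counts of 6 or fewer were taken as not above 0, and intervals of this kind cover counting error only. Each tree was a separate individual, and strand was not used in the counting as far as the sources used here say.

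CPM were computed from raw column totals for the choice, the profiles and the means. The colours were compared on counts with edgeR 4.0.16 and limma 3.58.1 in R 4.3.3 (at least 2 CPM in at least 2 libraries, TMM factors, colour as the only term, quasi-likelihood test, Benjamini-Hochberg adjustment over all 23352 transcripts tested). SEs were derived as |logFC| over the root of F. DESeq2 1.42.0 and edgeR's exact tests were alternatives, beside other normalizations, filters, settings of the choice, a block on tree number and the omission of each tree in turn. The fits were checked on simulated counts. Profiles were grouped by complete linkage at r of 0.8 with scipy 1.17.1 (numpy 2.4.6, pandas 2.3.3, Python 3.11.15), and plots were drawn with matplotlib 3.10.9.

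The members, the lists and the rule for naming were chosen with earlier results of these data known. Named were the 6 members of largest SD, highest mean and smallest p, those at the threshold, up to 4 of each list of words in the descriptions, those the study names, those with the largest share in 1 tree, the widest gaps, and the leading members of the 4 largest profile groups and of opposite pairs. Members named beyond that rule were chosen after their values were seen. Descriptions came from the first 1998 entries (1714 different transcripts) of the study's annotation table, in which many letters are lost and were restored by hand, and a few GO terms from its second table. The authors' own fold changes and p-values in these tables were not used. Sequences of the transcripts were not used here.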

Additional observations from a re-analysis of the deposited data

Results flagged for a closer look

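In 10 of the 102 groups of 6 trees examined (51 named members in 2 colours), 1 tree lay far from the other 5 of its colour on the log2 scale. Chance alone gives about 1 in 20 in groups not chosen by their values, a rate that cannot be applied here, since the members were chosen for their spread and some were named for a gap or for their share in 1 tree, and no test is read from these groups. The 10 groups belong to 8 members. In bluish trees, ap_83082 was low in tree 3 at 8.37 CPM, with the other 5 between 226 and 574 CPM, and in green trees it was low in tree 2 at 4.95 CPM, with the others between 214 and 476 CPM. The BSU5 contig ap_4516 was low in bluish tree 3 at 58.9 CPM, with the others between 243 and 431 CPM. The NB-ARC contig ap_83722 was low in green tree 5 at 1.88 CPM, against 46.3 to 272 CPM. High trees were found for the P450 ap_88221 in bluish tree 4 (45.0 CPM, against 0.660 to 1.76 CPM), for ap_76368 in green tree 3 (55.5 CPM, against 0.0652 to 1.17 CPM) and for ap_31651 in green tree 3 (132 CPM, against 0 to 3.00 CPM). For ap_3077, green tree 5 was at 122 CPM with the others at 0.0271 CPM or less, and bluish tree 2 was at 1.00 CPM with the others at 0.147 CPM or less. In ap_35145, bluish tree 5 was at 0.101 CPM and the other bluish trees had no count, which is a difference of few reads.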

How the results depend on the processing

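The 0 members called between the colours stayed at 0 with other normalizations, other filters, with each tree left out in turn and with the tree number as a replicate block, and became 2 with DESeq2, 5 with the exact test and a dispersion for each transcript and 38 with a common dispersion. Of all transcripts tested, 1 was called, against 0 with the replicate block, 3 with filterByExpr, 22 with DESeq2, and 23 and 453 with these exact tests, and between 1 and 2 with a tree left out, the latter without bluish tree 4 or green tree 6. Members with an unadjusted p under 0.05 went from 18 to 29 with no filter, 39 and 90 with the exact tests, and 27 with the block. With 1 tree left out they numbered between 13 (without green tree 5) and 28 (without green tree 6). The median logFC of the members was 0.07, and 0.11 with the block. Under the block, logFC turned to 0.31 for ap_2903, −0.22 for ap_7443 and 0.0104 for ap_4883. Trees with the same number had correlations of their deviations between −0.124 and 0.0993, with only bluish tree 3 matching its own number best. These values do not show a pairing by number, and whether trees of the same number shared more than it was not otherwise tested.

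With a tree left out, the logFC of 6 of the 50 named members tested changed sign, and none of these was called by the quasi-likelihood test, although ap_76368 was by the exact test with a common dispersion. It ranged from −0.44 to 1.11 in ap_70832 (negative without bluish tree 2 or 3), from −0.61 to 0.35 in ap_2903, from −1.02 to 5.89 in ap_76368 (negative without bluish tree 6), from −0.0221 to 0.49 in ap_83082 (negative without green tree 2), from −0.32 to 0.46 in ap_7443 (negative without bluish tree 5) and from −0.49 to 0.47 in ap_4883. The other 44 kept their direction in every alternative, but 35 of the 50, those that changed sign included, moved by more than 1.5 times without at least 1 tree. Of the 200 members 108 were chosen again with a minimum mean of 20 CPM, 121 with 5 CPM and 127 with the median absolute deviation in place of the SD, and at least 192 with TMM-scaled libraries, with 0.1 or 2 CPM added or with the SD taken within the colours. By the rule itself, a minimum of 20 CPM removes the members of lower mean and keeps the others. A minimum of 5 CPM admits transcripts of lower mean, and those of larger SD displace members. The cause of the other differences was not tested. The numbers of members with 2 levels (24 to 30), with more than 50% in 1 tree (5) and of profile groups (42 to 45) moved little under the alternatives run.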
